A study of Mus musculus with 8 samples.

Results

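The Notch pathway was examined through 10 genes of the mouse table: the receptors NOTCH1, NOTCH2, NOTCH3 and NOTCH4, the ligands JAG1, JAG2, DLL1 and DLL4, and the targets HES1 and NRARP. They were taken by symbol from the first column of the deposited normalized counts, which lists 16119 genes in capitals. All 10 were found, and all 10 passed the filter on low values that left 14703 genes for testing. Bulk RNA was sequenced from thyroid follicular cell organoids (TFCOs), which are hollow epithelial spheres grown from dissociated adult thyroid, and from whole thyroid and lung tissue. There were 8 libraries in 4 groups of 2: TFCOs of lines mThy14 and mThy16 at early passage, the same 2 lines at late passage, 2 thyroid tissues and 2 lung tissues, the last serving as an unrelated tissue.

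All samples were labelled wild type and untreated, and the organoids were derived from female C57BL/6 mice according to the methods. The sources used here gave neither the ages nor the exact passage numbers. Each culture was started from a single thyroid and grown in basement membrane extract with R-spondin 3, the TGF-beta receptor inhibitor A83-01, forskolin, EGF and FGF10. No Notch ligand or Notch inhibitor was listed in this medium. Early and late libraries of a line therefore came from the same culture, and 2 cultures are the replicates of the TFCOs. Nothing in the labels tied a tissue library to a named animal, so p-values measure only the spread between these samples.

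Notch receptors are cut after they bind a ligand on a neighbouring cell, and the freed intracellular part enters the nucleus, where it joins the DNA-binding protein RBPJ and MAML coactivators to switch on target genes. JAG1, JAG2, DLL1 and DLL4 are activating ligands with different cell type preferences, and DLL4 and NOTCH4 are best known from blood vessels. In many epithelia the pathway guides the choice between alternative cell fates, and in the vascular wall NOTCH3 is characteristic of smooth muscle cells and pericytes.

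Reads assigned to genes ranged from 9755081 to 16904865 per library. PAX8, a transcription factor of thyroid follicular cells, was at 3925 to 8273 normalized counts in TFCOs, 8300 and 5714 in thyroid and 0 in both lung libraries. The sum of 8 follicular markers was 20910 to 170700 in TFCOs, 1556000 and 2224000 in thyroid and 2949 and 2009 in lung. Of these 8 markers, 3 were lower and 1 was higher in every TFCO library than in both thyroid tissues. The hormone precursor TG was at 9532 to 126400 in TFCOs against 1526000 and 2175000 in thyroid. The libraries fell into 2 sets: 44 genes had a value of 0 in the 2 lung libraries and in thyroid tissue 2 while reaching at least 50 in each of the remaining 5, and 16 genes showed the reverse. TFCOs can therefore be compared within a set with thyroid tissue 1 alone, thyroid tissue 2 can be compared within a set with lung, and for TFCOs against lung the tissue and the set cannot be told apart. Whole tissues also hold other cells: the sum of 10 endothelial markers was 412.5 to 867 in TFCOs, 4466 and 11170 in thyroid and 34550 and 57300 in lung. The sums of 6 fibroblast markers (91.6 to 247.4 in TFCOs, 29600 and 25240 in thyroid, 22580 and 38730 in lung) and of 7 leukocyte markers (67.5 to 99.0, 790.3 and 1436, 5847 and 3835) were lower in every TFCO library as well, and the fibroblast marker LUM was at 0 in all 4. Taken singly, 3 of the 7 leukocyte markers were lower in every TFCO library than in both thyroid tissues, and 7 than in both lung tissues. Thyroid tissue also held skeletal muscle markers (40910 and 130000 against 1955 to 2638 in TFCOs) and markers of C cells and parathyroid (48100 and 92420 against 23.8 to 115.3). In bulk RNA, fewer cells of a type and less RNA per cell cannot be told apart.

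To place the most changed ligand and receptor and a target in the genome, the 250 bases before the RefSeq start of transcription are given for DLL4 (GRCm38.p6, chr2:119325534-119325783, plus strand), NOTCH4 (chr17:34564045-34564294, plus strand) and NRARP (chr2:25180508-25180757, plus strand). Capitals mark GGAA on either strand (TTCC on the printed one), the core letters bound by ETS-family factors.
DLL4: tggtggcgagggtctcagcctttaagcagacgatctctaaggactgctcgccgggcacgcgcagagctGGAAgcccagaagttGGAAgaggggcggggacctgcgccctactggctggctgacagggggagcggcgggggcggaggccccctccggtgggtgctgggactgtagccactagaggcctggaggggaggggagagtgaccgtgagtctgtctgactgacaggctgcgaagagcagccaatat
NOTCH4: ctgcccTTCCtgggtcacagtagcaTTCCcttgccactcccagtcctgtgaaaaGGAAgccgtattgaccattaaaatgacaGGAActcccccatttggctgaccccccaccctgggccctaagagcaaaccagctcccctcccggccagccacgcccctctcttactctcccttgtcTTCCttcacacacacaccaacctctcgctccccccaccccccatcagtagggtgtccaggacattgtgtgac
NRARP: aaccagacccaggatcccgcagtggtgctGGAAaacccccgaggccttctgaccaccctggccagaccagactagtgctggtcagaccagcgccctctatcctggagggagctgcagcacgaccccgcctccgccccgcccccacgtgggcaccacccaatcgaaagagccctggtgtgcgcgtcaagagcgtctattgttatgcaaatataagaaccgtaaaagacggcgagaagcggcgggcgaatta
These windows held 2, 5 and 1 matches of GGAA, and at least 1 match was present in 92.9% of 15814 windows of genes in the table. The DLL4 and NRARP windows were 65.6% and 61.2% G and C with 14 and 18 CG pairs, and the NOTCH4 window was 58.4% G and C with 4 CG pairs. Over all windows the medians were 58.8% G and C, 13 CG pairs and 3 matches of GGAA. The letters TGGGAA, the core recognised by RBPJ, were searched on both strands of windows that ran to 50 bases past the start. TGGGAA was found in 0 of 10 windows of 9 of the genes (all but HES1) and in 23.6% of all windows, and the longer GTGGGAA, which contains it, in 0 of 10 and in 6.14%. A match or its absence describes only the letters of these windows.

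Levels were compared between genes as normalized counts per kilobase of exon. The labels describe a CEL-Seq protocol, which reads the 3' ends of transcripts, and the methods a full-length stranded kit, so orders are given on the unscaled values as well. Antisense genes overlap NOTCH1, NOTCH3, NOTCH4, DLL1, DLL4 and NRARP in the annotation, and their reads could be counted with these genes if strand was not used. JAG1 was the main ligand of the TFCOs, with 70.5% to 85.6% of the summed level per kilobase of the 4 ligands in the 4 libraries. Its share was 50% and 39.6% in thyroid and 26.7% and 19.0% in lung. DLL4 took 0.316% to 1.74% of this sum in TFCOs, against 16.5% and 29.1% in thyroid and 46.7% and 47.9% in lung. JAG1 was thus the highest ligand in all 4 TFCO and both thyroid libraries and DLL4 the highest in both lung libraries, and the unscaled values gave the same leading ligands. The summed ligand level itself was 390.9 to 501.9 per kilobase in TFCOs, 329.1 and 261.1 in thyroid and 487.0 and 739.3 in lung.

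Among the receptors, NOTCH1 and NOTCH2 together led in TFCOs. NOTCH2 was the highest receptor per kilobase in 3 of 4 TFCO libraries with 39.7% to 43.1% of the receptor sum, while in late mThy14 NOTCH1 was highest with 58.5%. On unscaled values NOTCH1 was above NOTCH2 in all 4, so the order of this pair depends on the scale. NOTCH4 was the lowest receptor in all 4 TFCO libraries on both scales, with 5.89% to 8.31% of the sum per kilobase. It made up 19.5% and 16.6% in thyroid and 29.4% and 46.0% in lung.

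**Figure D1:**
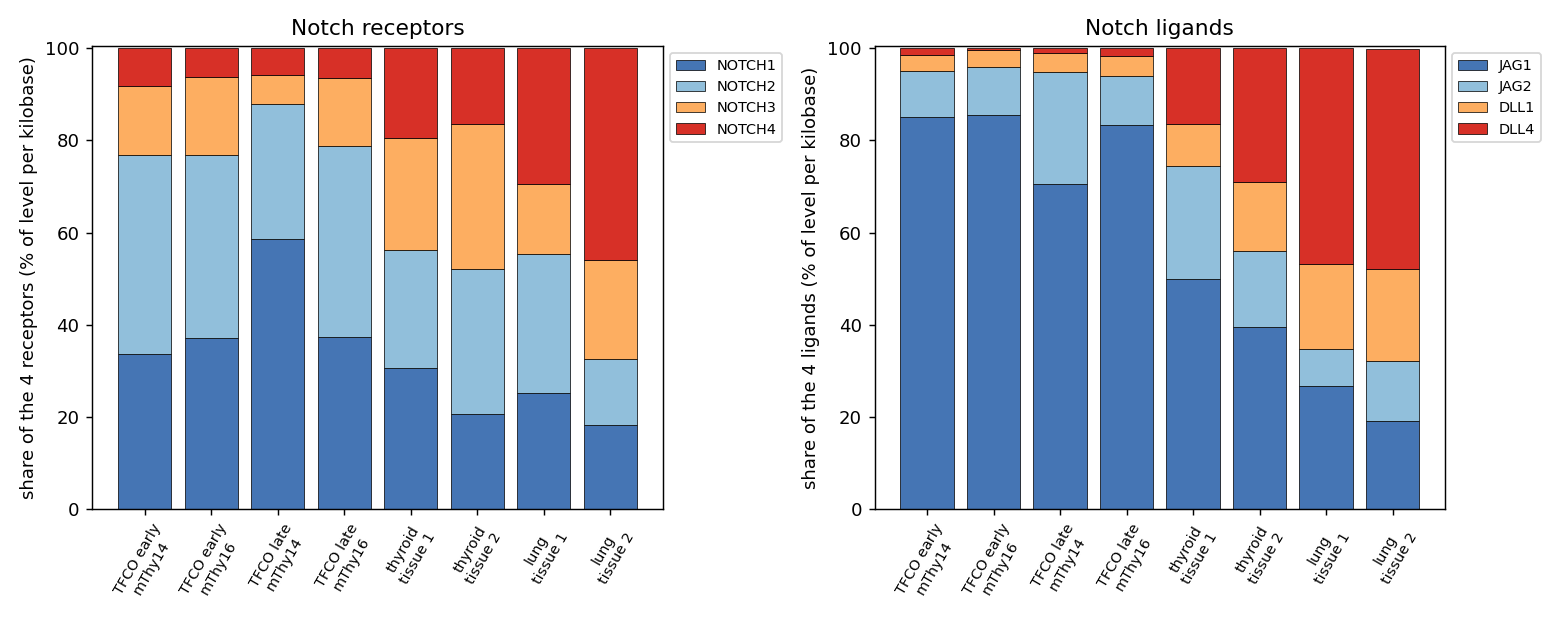
Share of each Notch receptor (left) and ligand (right) in the summed level per kilobase of its class, in percent, with 1 stacked bar per library. JAG1 takes 70.5% to 85.6% of the ligand bar in the 4 TFCO libraries, and DLL4 takes the tallest segment in the 2 lung libraries.

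NOTCH1 lies on the minus strand of chromosome 2 (26457903 to 26516663, GRCm38, GENCODE M21, as for the positions that follow). It was at 1056 and 1010 normalized counts in early mThy14 and mThy16, 2880 and 1153 in late mThy14 and mThy16, 1267 and 804.9 in thyroid and 1199 and 1901 in lung. The late mThy14 library stood above all others, and apart from it the TFCO values lay inside the range of the thyroid tissues. NOTCH1 did not pass the test in TFCOs against thyroid (log2 fold change 0.44, SE 0.43, limma adjusted p = 0.575) or against lung (-0.14, SE 0.43, adjusted p = 0.821).

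NOTCH2 (plus strand of chromosome 3, 98013527 to 98150361) was at a similar level throughout, at 1023 and 819.0 in early and 1101 and 972.5 in late mThy14 and mThy16. It was at 805.6 and 932.1 in thyroid and 1094 and 1122 in lung. All 8 values lay between 805.6 and 1122 and the TFCO values overlapped with both tissues. The log2 fold changes were 0.17 (SE 0.32) against thyroid and -0.19 (SE 0.32) against lung, neither past the threshold (limma adjusted p = 0.781 and 0.671).

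NOTCH3 (minus strand of chromosome 17, 32120820 to 32166852), the mural receptor, was at 267.0 and 263.4 in early and 171.7 and 258.2 in late mThy14 and mThy16, 568.3 and 697.0 in thyroid and 412.1 and 1272 in lung. All 4 TFCO values lay below all 4 tissue values, and the lung tissues differed widely between themselves. The log2 fold change was -1.41 (SE 0.56) against thyroid and -1.61 (SE 0.56) against lung, and neither passed the threshold (limma adjusted p = 0.241 and 0.0715). Against lung it was -2.42 without lung tissue 1 and -0.80 without lung tissue 2, and with the 4 TFCO libraries as separate samples it was called (adjusted p = 0.0298). The sum of 7 mural markers was 1579 to 2462 in TFCOs, 5991 and 10730 in thyroid and 4189 and 11590 in lung, and 5 of the 7 were lower in every TFCO than in every thyroid library. The exceptions were MYH11, at 1069 to 1668 in TFCOs and 1206 and 668.4 in thyroid, and ACTA2, at 271.7 to 610.4 and 2319 and 524.6. The part of mural RNA in the NOTCH3 values was not tested.

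NOTCH4 (plus strand of chromosome 17, 34564268 to 34588503), the endothelial receptor, was at 147.6 and 97.0 in early and 164.5 and 114.0 in late mThy14 and mThy16, 456.1 and 366.9 in thyroid and 793.2 and 2710 in lung. TFCOs, thyroid and lung were fully separated, with TFCOs lowest and lung highest, while early and late TFCOs overlapped. Against lung it fell by 3.51 on the log2 scale (SE 0.61, limma adjusted p = 0.0120), a call lost without lung tissue 2, when it was -2.62 (adjusted p = 0.105). Without lung tissue 1 it was -4.39 (adjusted p = 0.0254). Against thyroid the log2 fold change was -1.67 (SE 0.61), which did not pass (limma adjusted p = 0.208).

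**Figure D2:**
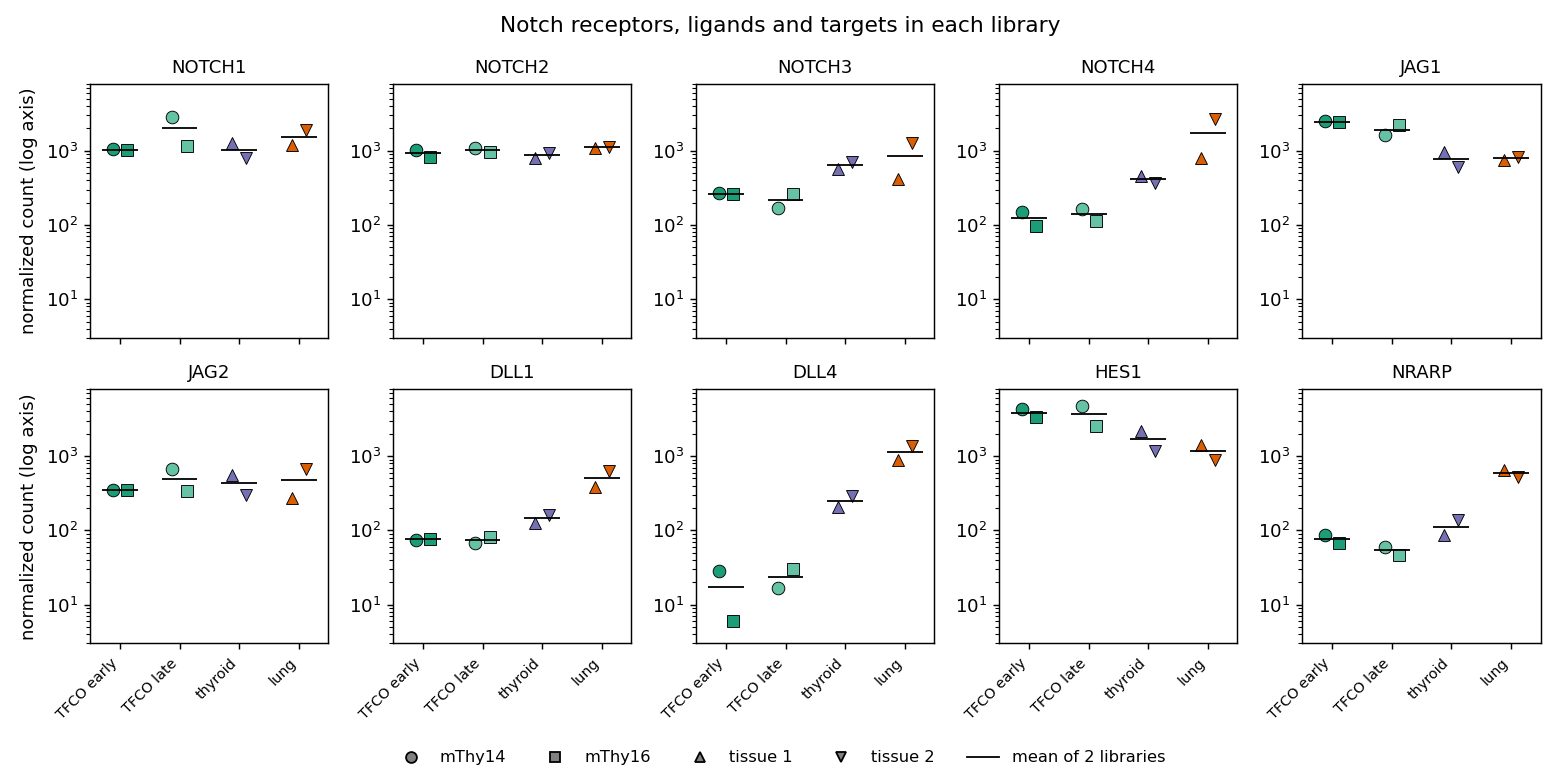
Normalized counts (log axis) of the 10 genes, 1 panel each, with 1 point per library, colours for the groups, shapes for the line or tissue number, and a bar at the mean of 2 libraries. DLL4 lies at 5.94 to 30.2 in TFCOs and at 209 to 1365 in the tissues, while NOTCH2 is level across all 8 libraries.

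JAG1 (minus strand of chromosome 2, 137081456 to 137116644), the ligand with the highest level in TFCOs, was at 2486 and 2432 in early and 1606 and 2194 in late mThy14 and mThy16. It was at 959.1 and 602.0 in thyroid and 758.1 and 819.7 in lung. Every TFCO library was above every tissue library, and thyroid and lung overlapped. JAG1 rose 2.72-fold against lung (log2 1.45, SE 0.36, limma adjusted p = 0.0337). Against thyroid the log2 fold change was 1.5 (SE 0.36) and did not pass (limma adjusted p = 0.0767). The call against lung was lost without early mThy14 (adjusted p = 0.0539), lung tissue 1 (0.196) or lung tissue 2 (0.177). Compared only with thyroid tissue 1, its own library set, JAG1 in TFCOs differed by 1.16 on the log2 scale, with no test.

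JAG2 (minus strand of chromosome 12, 112907819 to 112929776), the second Jagged ligand, showed no separation between any groups. It was at 350.0 and 353.5 in early and 660.9 and 334.2 in late mThy14 and mThy16, 559.5 and 299.6 in thyroid and 269.7 and 674.1 in lung. Its log2 fold changes were -0.01 (SE 0.56) against thyroid and -0.07 (SE 0.56) against lung (limma adjusted p = 0.994 and 0.933), and the sign of both turned under other settings.

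DLL1 (minus strand of chromosome 17, 15367354 to 15376872), a Delta-type ligand, was at 74.5 and 76.3 in early and 67.7 and 80.5 in late mThy14 and mThy16, 126.3 and 163.2 in thyroid and 382.8 and 622.2 in lung. The 4 TFCO values spanned 12.8 normalized counts and below all tissues. DLL1 fell by 2.69 on the log2 scale against lung (SE 0.51, limma adjusted p = 0.0156), a call lost without lung tissue 1 (adjusted p = 0.111) or lung tissue 2 (0.172). Against thyroid its log2 fold change was -0.94 (SE 0.51), which did not pass (limma adjusted p = 0.359) and was -0.21 under quantile normalization. Against lung it was -2.06 under that normalization and stayed called (adjusted p = 0.0388).

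DLL4 (plus strand of chromosome 2, 119325784 to 119335962), the endothelial Delta ligand, had the largest differences of the 10 genes between TFCOs and either tissue. It was at 28.1 and 5.94 in early and 16.7 and 30.2 in late mThy14 and mThy16, from 20, 6, 16 and 27 reads. The thyroid tissues were at 209.0 and 293.2 and the lung tissues at 876.2 and 1365. No groups overlapped apart from early and late TFCOs. DLL4 was 13.6-fold lower in TFCOs than in thyroid (log2 -3.77, SE 0.54, limma adjusted p = 0.0154) and 59.9-fold lower than in lung (log2 -5.91, SE 0.54, limma adjusted p = 0.00136). The call against lung held in all 17 alternative settings run for it (adjusted p at most 0.0427). Without thyroid tissue 2, lung tissue 1 or lung tissue 2 the adjusted p against thyroid was 0.0627, 0.0763 and 0.0841, so that call was lost. Against thyroid tissue 1 alone the log2 difference was -3.52.

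The levels of DLL4, NOTCH4 and NRARP were set beside the endothelial markers. DLL4 followed the order TFCO, thyroid, lung of the marker sum, with both tissues in the order of their sums. NOTCH4 kept the order of the groups but was higher in thyroid tissue 1 than in thyroid tissue 2, and NRARP was level in thyroid tissue 1 and early mThy14 (86.0 and 85.7) at marker sums of 4466 and 633.9 and was lower in lung tissue 2 than in lung tissue 1. In TFCOs, 9 of these 10 markers were below both thyroid tissues in every library and 10 of 10 below both lung tissues. TEK, an angiopoietin receptor of endothelium, was at 0 in early mThy16, and EMCN, an endothelial sialomucin, at 0 in early mThy14. The part of endothelial RNA in the levels of the 3 genes was not tested. Over the 8 libraries, the genes most like DLL4 by Pearson r of log2 values were ENG (0.992), RTN4RL1 (0.990) and NOSTRIN (0.989), and those most like NOTCH4 were SH2D3C (0.992), ADAMTS10 (0.992) and TBKBP1 (0.990), of 11544 genes compared. By the same measure NRARP was most like LILRA5 (0.991), SLC39A8 (0.989) and TMEM154 (0.986), DLL1 most like PKD1 (0.995), PER3 (0.989) and HSD11B1 (0.988), and NOTCH3 most like TBXA2R (0.959), DOK4 (0.955) and COL4A1 (0.950). JAG1 was most like FADS2 (0.995), FZD3 (0.993) and GMPR2 (0.990), and HES1 most like CPSF3 (0.991), RPL23 (0.989) and MXD3 (0.989). NOTCH1 (DENND6A 0.930, RUNX1T1 0.929, SAV1 0.923), NOTCH2 (SLC15A4 0.958, BFAR 0.948, MAN1B1 0.942) and JAG2 (HCFC2 0.918, FRS2 0.899, RAPH1 0.887) had less similar neighbours. These values rest on 8 points that share the group differences, and they are descriptions.

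**Figure D3:**
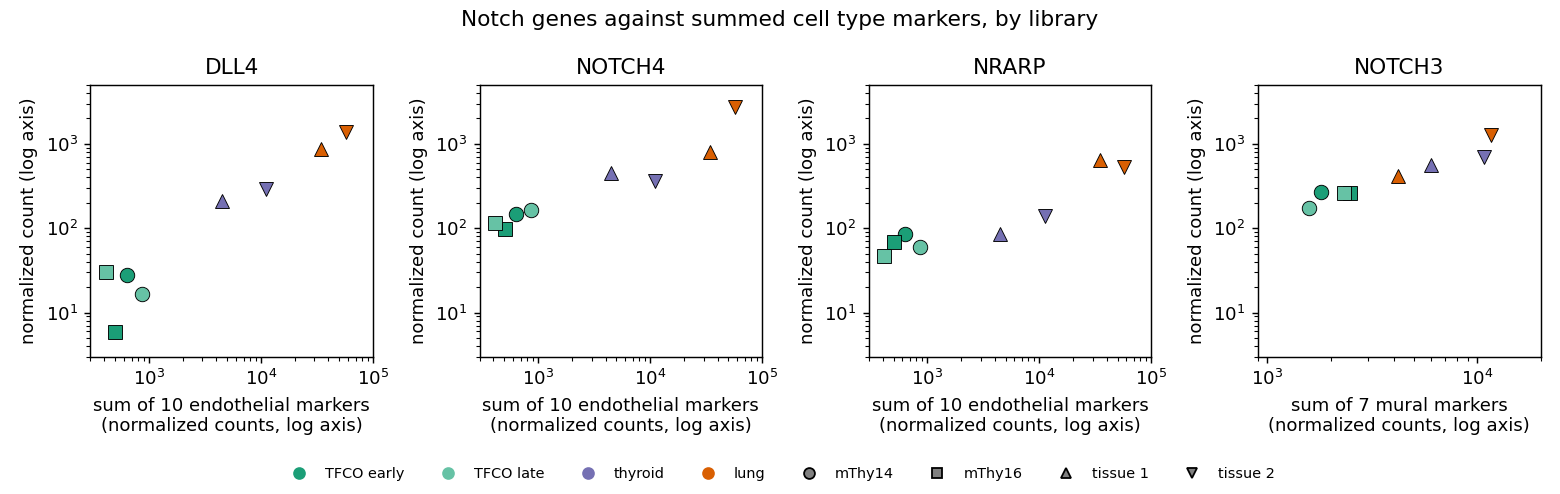
Normalized counts of DLL4, NOTCH4 and NRARP against the sum of 10 endothelial markers, and of NOTCH3 against the sum of 7 mural markers, with 1 point per library and log axes. The 4 TFCO libraries lie at the lower left of all panels, with endothelial sums of 412.5 to 867.

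HES1 (plus strand of chromosome 16, 30064384 to 30067796), a transcriptional repressor and classical Notch target, was the most abundant of the 10 genes per kilobase in every library. On unscaled values it led in every library except lung tissue 2, where NOTCH4 was highest at 2710. HES1 was at 4322 and 3349 in early and 4782 and 2573 in late mThy14 and mThy16, 2171 and 1188 in thyroid and 1419 and 896.5 in lung. All TFCO values were above all tissue values. HES1 rose 3.24-fold against lung (log2 1.70, SE 0.46, limma adjusted p = 0.0406), and this call was lost without early mThy16 (adjusted p = 0.0529), lung tissue 1 (0.150) or lung tissue 2 (0.229). Against thyroid the log2 fold change was 1.19 (SE 0.46), which did not pass (limma adjusted p = 0.232), and against thyroid tissue 1 alone it was 0.75.

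NRARP (plus strand of chromosome 2, 25180758 to 25183339), a target that limits Notch signalling by binding the receptor's intracellular part, was low in TFCOs, at 85.7 and 68.3 in early and 60.4 and 47.0 in late mThy14 and mThy16. It was at 86.0 and 139.2 in thyroid and 641.6 and 528.5 in lung. Thyroid tissue 1 and early mThy14 were almost level, and both lung tissues stood above all others. NRARP fell by 3.17 on the log2 scale against lung (SE 0.53, limma adjusted p = 0.0106), a call lost without lung tissue 1 (adjusted p = 0.137) or lung tissue 2 (0.116). Its log2 fold change was -0.77 (SE 0.53) against thyroid (limma adjusted p = 0.436). Against lung the targets HES1 and NRARP thus had changes of opposite sign. Under quantile normalization the NRARP log2 fold change against thyroid was -0.0025.

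**Figure D4:**
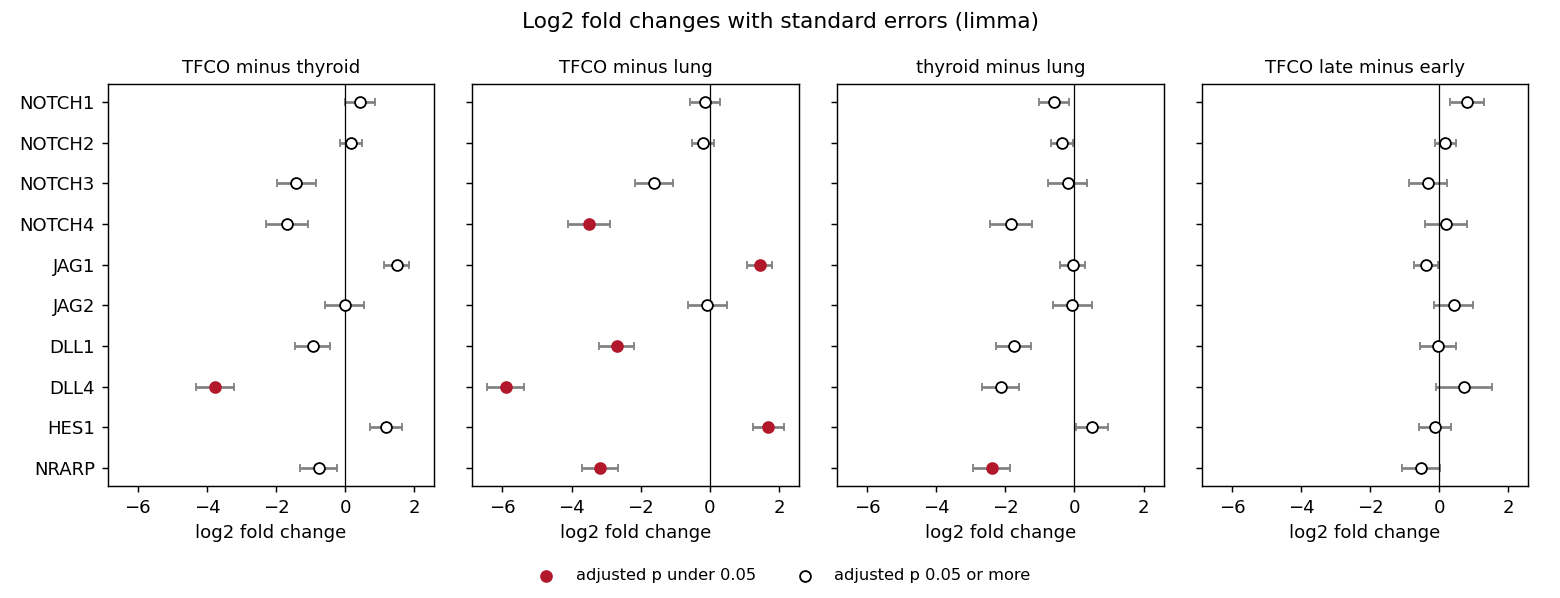
Log2 fold changes of the 10 genes in 4 comparisons (limma), with bars of 1 SE and filled points where the adjusted p was under 0.05. DLL4 is filled against thyroid, and NOTCH4, JAG1, DLL1, DLL4, HES1 and NRARP against lung.

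Counted over the list, TFCOs against thyroid gave 1 gene lower (DLL4) and 0 higher, where 3.05% of all genes tested were called lower and 0.599% higher. TFCOs did not overlap with thyroid in 7 of the 10 genes, against 34.5% of all genes. For NRARP, among these 7, the gap was only that between 85.7 in early mThy14 and 86.0 in thyroid tissue 1. TFCOs against lung gave 4 genes lower (NOTCH4, DLL1, DLL4 and NRARP) and 2 higher (JAG1 and HES1), where 13.5% and 9.83% of all genes were called. The groups did not overlap in 7 of 10 genes, against 67.7% of all genes, a share near the background. Without lung tissue 1 or lung tissue 2, 2 and 1 of the 10 genes were still called against lung. The median log2 fold change of the 10 genes was -0.39 against thyroid and -0.90 against lung, and that of all genes 0.05 in both.

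Thyroid and lung were compared for the same genes. NRARP fell by 2.40 on the log2 scale in thyroid against lung (SE 0.53, limma adjusted p = 0.0452) and was the only 1 of the 10 called, where 3.16% of all genes were called lower and 2.89% higher. DLL4 (-2.14, SE 0.54, adjusted p = 0.0676), DLL1 (-1.76, SE 0.51, adjusted p = 0.0944) and NOTCH4 (-1.84, SE 0.61, adjusted p = 0.130) also had no overlap between the tissues. NOTCH4 was at -0.95 without lung tissue 2 and -2.73 without lung tissue 1. Groups did not overlap in 5 of the 10 genes (these 4 and NOTCH2), against 53.8% of all genes, a share near the background. Within the set of thyroid tissue 2 and lung, the log2 differences were -2.06 for NRARP, -1.90 for DLL4, -1.58 for DLL1 and -2.00 for NOTCH4. The NRARP call was lost in 9 of 18 alternative settings, among them the removal of early mThy14 (adjusted p = 0.0534), early mThy16 (0.0556), late mThy14 (0.0540), thyroid tissue 1 (0.0725), lung tissue 1 (0.381) or lung tissue 2 (0.331). Between thyroid tissue 1 and lung, which lie in different sets, the log2 differences were -2.38 for DLL4 and -1.94 for DLL1.

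Passage made no difference that passed the test. Late against early TFCOs gave 0 of 14703 genes by limma, which is 0%, and 166 genes at an unadjusted p under 0.05. The 10 genes all had an adjusted p of 1. NOTCH1 had the largest difference (log2 0.82, SE 0.49), of which 1.45 fell in mThy14 and 0.19 in mThy16. JAG1 and NRARP had lower values in both late libraries, with log2 differences of -0.63 and -0.15 for JAG1 and -0.50 and -0.53 for NRARP in mThy14 and mThy16. Early and late groups did not overlap in 4 of 10 genes (NOTCH1, NOTCH3, JAG1 and NRARP), against 23.3% of all genes.

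The lines differed in some members, with 1 library per line and passage and therefore no test. HES1 was higher in mThy14 than in mThy16 by 0.37 (log2) at early and 0.89 at late passage, and NOTCH4 by 0.60 and 0.52. NOTCH1 was level at early passage (0.06) and apart at late passage (1.32), as was JAG2 (-0.01 and 0.98). DLL4 was higher in mThy14 by 2.07 at early passage and lower at late passage (-0.82), from 6 to 27 reads per library. DLL1 differed by -0.03 and -0.25, the smallest mean over both passages (-0.14).

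The other genes of the pathway were taken from a list of 54, of which 53 were in the table and 52 were tested. Against thyroid, 1 was higher and 3 were lower in TFCOs, where 0.599% and 3.05% of all genes tested were called. ID3, an inhibitor of basic helix-loop-helix factors, was at 25.0 to 97.0 in TFCOs and at 2185 and 3250 in thyroid (log2 -5.58, SE 0.37, limma adjusted p = 0.00151). GATA3, a transcription factor, was at 3.12 to 21.1 against 324.4 and 117.1 (log2 -4.33, SE 0.79, adjusted p = 0.0341). HEYL, a Hes-related Notch target, was at 14.9 to 81.2 against 219.9 and 803.0 (log2 -3.94, SE 0.81, adjusted p = 0.0494). MYC, a growth regulator, rose from 439.8 and 181.6 in thyroid to 1172 to 1983 in TFCOs (log2 2.52, SE 0.52, adjusted p = 0.0494). The ID3 call held in all 17 alternative settings (adjusted p at most 0.0304), whereas those of GATA3, HEYL and MYC were lost in 6, 12 and 12 of 17. Without thyroid tissue 1 and without thyroid tissue 2, the log2 fold change was -3.60 and -5.06 for GATA3, -4.87 and -3.01 for HEYL and 3.16 and 1.89 for MYC. GATA3 was lost without late mThy14 (log2 -3.73, 0.0664), lung tissue 1 (0.135) or lung tissue 2 (0.132). HEYL was lost without early mThy14 (0.103), early mThy16 (0.0513), thyroid tissue 2 (0.158), lung tissue 1 (0.135) or lung tissue 2 (0.143). MYC was lost without early mThy16 (0.0556), late mThy14 (0.0759), thyroid tissue 2 (0.104), lung tissue 1 (0.118) or lung tissue 2 (0.117).

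The core of the nuclear complex and the cutting enzymes gave no call against thyroid. RBPJ was at 608.6 to 1235 in TFCOs and 1005 and 598.4 in thyroid, and MAML1 at 340.9 to 497.5 and 421.3 and 386.3. All 10 genes of the nuclear complex had positive log2 fold changes (median 0.51), and 7 of 8 secretase and sheddase genes did (median 0.88). In either list 0 were called, and the median of all genes was 0.05. The sign was less uniform against thyroid tissue 1 alone, with no test. There the nuclear complex genes ran from -0.16 (MAML2) to 0.58 (SNW1), with RBPJ at -0.046. Secretase and sheddase genes ran from -0.99 (APH1B) to 0.98 (ADAM10). ADAM10, the sheddase that makes the first ligand-dependent cut, was at 3300 to 5841 in TFCOs against 2388 and 1461 (log2 1.33, SE 0.38, limma adjusted p = 0.122). Its log2 fold change was 1.69 without thyroid tissue 1 and 0.98 without thyroid tissue 2.

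Against lung, 9 of the 52 genes were higher and 7 lower in TFCOs, with a median of 0.37 against 0.05 for all genes. The shares of all genes called were 9.83% and 13.5%, and 7 of 52 lower is near that background. The genes called against thyroid were called in the same direction against lung. ID3 was lower (log2 -5.33, SE 0.37, limma adjusted p = 0.000547), as were HEYL (-4.09, SE 0.81, 0.0177) and GATA3 (-3.44, SE 0.79, 0.0268). MYC was higher (4.06, SE 0.52, 0.00434). These calls against lung were not checked under other settings. Of the 3 Fringe enzymes, which add sugars to Notch receptors and change their ligand preference, LFNG and MFNG were lower and RFNG did not pass (log2 -1.48, SE 0.49, limma adjusted p = 0.0641). LFNG was at 43.7 to 155.4 in TFCOs and at 661.7 and 668.7 in lung (log2 -2.79, SE 0.59, limma adjusted p = 0.0216), and MFNG at 17.9 to 40.6 against 372.7 and 809.6 (log2 -4.33, SE 0.64, adjusted p = 0.00740). HEY1, a Hes-related target, was at 90.1 to 633.9 against 832.6 and 1362 (log2 -2.28, SE 0.67, adjusted p = 0.0491). The ligand genes DLL3 and DLK1 were higher, but both rest on lung values at or near 0: DLL3 was at 0 in both lung libraries and at 7.83 to 33.7 in TFCOs, and DLK1 at 0 and 0.674 in lung and at 17.7 to 63.3 in TFCOs. DTX3 and DTX4, of the Deltex family of ubiquitin ligases, were higher by 2.14 (SE 0.44, adjusted p = 0.0192) and 2.18 (SE 0.42, adjusted p = 0.0161). Without lung tissue 1 or lung tissue 2, the calls of LFNG, MFNG, DTX3 and DTX4 were lost (adjusted p 0.0608 to 0.163), and that of HEY1 was lost in 11 of 17 settings (adjusted p up to 0.237).

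**Figure D5:**
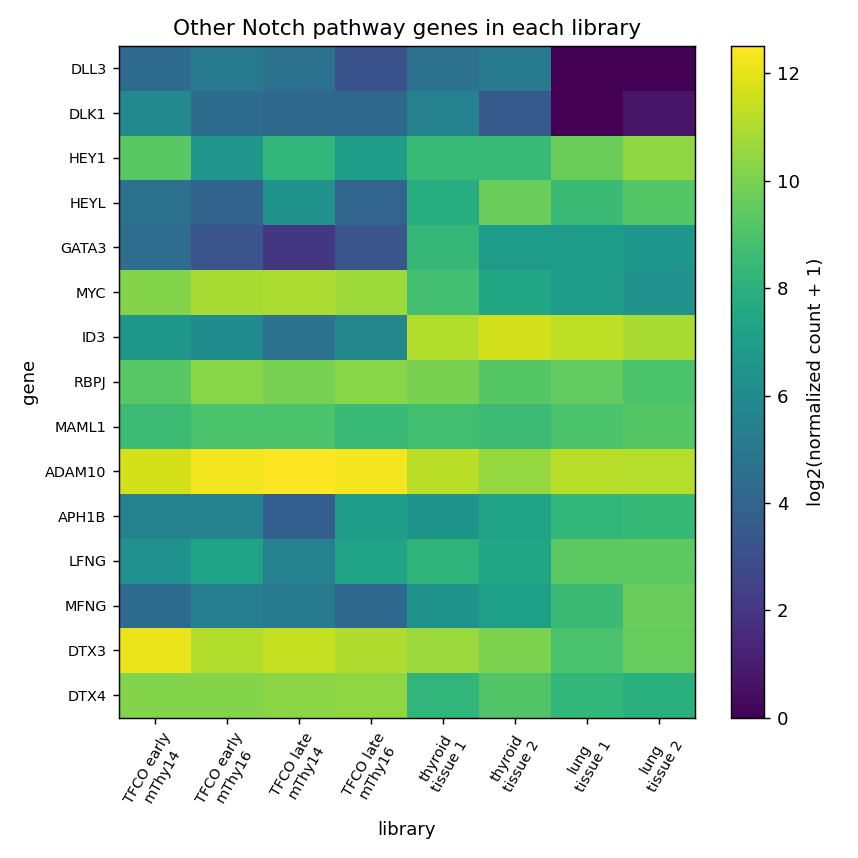
Log2(normalized count + 1) of 15 other Notch pathway genes, those named in the text and others that the same rule takes, in the 8 libraries. ID3, GATA3 and HEYL are darker in TFCOs than in tissues and MYC is brighter, and DLL3 is at 0 in both lung libraries.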

How the data were processed

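RNA of 8 mouse libraries was measured. The authors deposited 1 table of normalized counts, a signal in which read counts per gene were divided by 1 size factor for each library. The authors name DESeq2 in their methods. The labels describe a CEL-Seq library and the methods a TruSeq stranded kit, and the submitters' processing notes name BWA 0.6.2-r126 and the builds hg38 and mm10. The use of strand in counting was not given in the sources used here, so reads of NOTCH1, NOTCH3, NOTCH4, DLL1, DLL4 and NRARP cannot be told apart from those of overlapping antisense genes. In each library 100% of the values above 0 were whole multiples of 1 step (tolerance 0.01), from which reads were recovered.

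Values were analysed as log2(normalized count + 1) with limma 3.58.1 in R 4.3.3 (mean-variance trend, Benjamini-Hochberg adjustment, threshold 0.05) over 14703 of 16119 genes, those at 10 or more in at least 2 libraries. Fold changes are on this scale and understate low genes. Late and early passages were compared in 1 fit of 8 libraries, without pairing by line. For the tissue comparisons early and late libraries of each line were averaged beforehand, and TFCOs, thyroid and lung shared 1 fit. The spread between the lung libraries therefore enters the tests of TFCOs against thyroid. The fits were tested on simulated data that held neither the library sets nor lines shared by early and late libraries. Such a test cannot show how those features affect the calls. No exact permutation test was used, since with 2 libraries a group its smallest two-sided p is 0.333. Lines paired the early and late libraries (r = 0.477 of mThy14 minus mThy16 across genes), whereas tissue numbers did not pair thyroid with lung (r = -0.07). Exon lengths came from GENCODE M21 and matched 15883 genes, and 236 were without. Promoter windows came from RefSeq (GRCm38.p6).

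The members, gene lists and tests were chosen with earlier results of these data known. Named genes were the 10 members, the pathway genes RBPJ, MAML1, LFNG, HEY1, HEYL and ADAM10 (1 further gene of this rule is not reported here), at most 5 other called pathway genes per comparison and direction whose groups did not overlap, and the most alike genes of a member (Pearson r, 8 libraries, mean of 50 or more). Marker lists were given as sums. NEURL1A and TRP63 are not analysed here. The GGAA search and limma's voom on the recovered reads were added after the data were seen. Alternatives were the pseudocount, filter, normalization, trend, libraries in the fit, replicate block and leaving out each library.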

Additional observations from a re-analysis of the deposited data

Results flagged for a closer look

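In 4 genes the late minus early difference had opposite signs in the 2 TFCO lines, and the difference between the lines was not tested, since each line has 1 library per passage. DLL4 changed by -0.72 (log2) in mThy14 and by 2.17 in mThy16, a difference of -2.89, which rests on 20 and 16 reads in mThy14 and 6 and 27 reads in mThy16. JAG2 changed by 0.92 and -0.08, a difference of 0.996. HES1 changed by 0.15 and -0.38, a difference of 0.526. DLL1 changed by -0.14 and 0.08, a difference of -0.214.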

How the results depend on the processing

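Groups of 2 libraries limit what can be called, and the planned count models (edgeR and DESeq2) were not run on the recovered reads, for which voom was used. Each gene was counted once under each alternative. Beside the members, the counts include ID3, GATA3, HEYL, MYC and ADAM10 for TFCOs against thyroid. For TFCOs against lung they include LFNG, MFNG, HEY1, DTX3 and DTX4. Of these pairs of gene and setting, 162 of late against early, 212 of TFCOs against thyroid, 214 of TFCOs against lung and 162 of thyroid against lung kept their direction and side of the threshold. In the same order, 8, 5, 6 and 6 reversed. In the last 3 comparisons a further 35, 34 and 9 lost a call and 3, 1 and 3 gained one. The cause of the changes was not tested.

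Over all genes, TFCOs against thyroid gave 536 calls, and 124 with only the groups compared, 914 with the 4 TFCO libraries as separate samples, 232 with voom (added after the data were seen) and 153 (without lung tissue 2) to 4085 (without thyroid tissue 1) when 1 library was left out. Of the 10 genes, 1 was called, and 0, 2, 0 and 0 to 2 under the same settings. TFCOs against lung gave 3435 calls, 6979 with only the groups compared, 5892 with separate samples and 248 (without lung tissue 2) to 6986 (without thyroid tissue 1), and 6 members, or 1 to 6 with 1 library left out. Thyroid against lung gave 889 calls, 277 with only the groups compared and 58 (without either lung tissue) to 4311 (without thyroid tissue 2). Of the members 1 was called, 0 with no filter, 0 with only the groups compared, 2 with voom and 0 to 3 with 1 library left out. Late against early gave 0 calls, and 0 to 2 with 1 library left out (2 without late mThy16).

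With the TFCO line as a replicate block, late against early again gave 0 calls. With the tissue number as a replicate block, thyroid against lung gave 226 calls, none (0) among the 10 genes, and an adjusted p of 0.159 for NRARP.

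Under quantile normalization the log2 fold change of DLL1 (late against early) turned to 0.10 and that of JAG2 to 0.24 against thyroid, 0.28 against lung and 0.038 in thyroid against lung. With voom, JAG2 against thyroid turned to 0.075 and NOTCH1 against lung to 0.00094. Leaving out 1 library, late against early ranged from -0.11 to 0.49 for NOTCH4, -0.073 to 0.91 for JAG2, -0.15 to 0.094 for DLL1, -0.31 to 1.76 for DLL4 and -0.56 to 0.33 for HES1. JAG2 ranged from -0.46 to 0.44 against thyroid, -0.73 to 0.59 against lung and -0.72 to 0.60 in thyroid against lung. NOTCH1 against lung ranged from -0.50 to 0.22, and in thyroid against lung JAG1 ranged from -0.39 to 0.28 and NOTCH3 from -1.01 to 0.61.

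DLL4 against thyroid was not called with only the groups compared (adjusted p = 0.133) or with voom (0.0631), and JAG1 against thyroid was called with separate samples (0.0278). Against lung, JAG1 and HES1 were not called under quantile normalization (0.0517 and 0.0563) or without the trend (0.0782 and 0.0854).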

Other observations

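The 2 TFCO lines differed in a gene of ciliated cells, chosen after its values were seen. FOXJ1, the regulator of motile cilia, was at 35.1 and 442.4 normalized counts in early and late mThy14 and at 6122 and 6016 in early and late mThy16, against 30.5 and 22.1 in thyroid and 1241 and 1020 in lung. The Notch target HEY1 had the reverse order, at 633.9 and 312.3 in mThy14 and 90.1 and 126.3 in mThy16. The other Notch targets named above were mixed. HES1, NRARP and HEYL were also higher in mThy14 at early and late passage, whereas MYC, GATA3 and ID3 changed order between passages. KRT5, a keratin of basal epithelial cells, was at 227.7 and 469.4 in mThy14 and at 1485 and 1346 in mThy16. TG, the precursor of thyroid hormone, was at 126400 and 64650 in mThy14 and at 12230 and 9532 in mThy16. With 1 culture per line, these differences have no test.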
